A study of Macaca mulatta with 2 samples.

Results

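Genes of the endothelin system and the nitric oxide synthases were examined by RNA-seq in untreated optic nerves of wild-type rhesus macaques (*Macaca mulatta*). Members were chosen by symbol and were the ligands *EDN1* and *EDN3*, the receptors *EDNRA* and *EDNRB*, the converting enzymes *ECE1* and *ECE2*, and the synthases *NOS1*, *NOS2* and *NOS3*. Of these 9 genes, 8 had a row among the 16684 genes analysed. *ECE2* was not analysed here. In the RefSeq annotation of Mmul_10, the gene with the product endothelin-converting enzyme 2 carries the symbol *LOC702851* (chromosome 2, 89570602 to 89589203, plus strand). The table used here holds 0 symbols of that type. The paper names RefGene annotation for its mapping, so the RefSeq annotation need not be the gene set behind the table. The 2 libraries, Rep1 and Rep2, form a single untreated group, so no comparison between conditions was possible and no p-value was computed. The study's methods name a 12-year-old male as the donor of the nerves, whereas the series description speaks of 2 animals, so these replicates may come from the same animal. Values are TPM, a length-corrected share of the reads of a library that sums to 1000000 over all genes, so levels of different genes may be compared.

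Endothelins are short vasoconstrictor peptides. They are cut from long precursors, first by furin-like proteases and then by endothelin-converting enzymes, and act on G protein-coupled receptors. *EDNRA* is best known on vascular smooth muscle, where it drives contraction, and *EDNRB* on endothelium and glia, where it can trigger nitric oxide release and clears the peptide. Nitric oxide is made from arginine by neuronal (*NOS1*), inducible (*NOS2*) and endothelial (*NOS3*) synthases, and relaxes smooth muscle through cyclic GMP. Both systems have long been studied as regulators of blood flow at the optic nerve head.

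The libraries were not alike. A read in Rep1 was worth 17.2 times as many TPM as a read in Rep2, as computed gene by gene from the ratio of Rep1 to Rep2, and Rep1 listed 6425 genes at 0 against 2082 in Rep2. Cell type markers of the optic nerve were present in both, with the summed level of 7 oligodendrocyte markers at 45998 TPM in Rep1 against 212246 TPM in Rep2, of 7 astrocyte markers at 890 and 5313 TPM, of 9 endothelial markers at 61.4 and 139 TPM and of 8 pericyte and smooth muscle markers at 226 and 1256 TPM. The endothelial markers *VWF* and *ESAM* and the mural markers *CSPG4* and *NOTCH3* were listed at 0 in Rep1. Of the 9 endothelial markers, 5 were at least 2-fold higher in Rep2, 1 in Rep1 (*TEK*, 6.10 against 1.36 TPM) and 3 within 2-fold. Under the median-of-ratios scaling described below, 3 were higher in each library by that measure. Of the 8 mural markers, 7 were at least 2-fold higher in Rep2 and 0 in Rep1 (6 and 0 after that scaling). Some other sums went the other way. The 12 photoreceptor markers summed to 3325 TPM in Rep1 and to 30.3 TPM in Rep2, mostly through *GNAT1* (2763 TPM in Rep1) and *PDE6G* (514 TPM). Of these markers, 5 were at least 2-fold higher in Rep1, 1 in Rep2 and 6 within 2-fold. Over the 14693 genes above 0 in either library, 14.8% were at least 2-fold higher in Rep1 and 51.3% in Rep2. The 6 neuronal markers summed to 1924 and 47.4 TPM and the 5 erythrocyte markers to 4537 and 1098 TPM. What these differences contributed to the levels below was not tested. In whole nerve, fewer cells of a type and less RNA per cell cannot be told apart.

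*ECE1* was the most abundant of the 8 genes, followed by *EDNRA*, and *NOS1* and *NOS2* were at or near 0. *EDN1*, *EDNRB*, *EDN3* and *NOS3* lay between them, at means of 1.56 to 2.62 TPM. *EDNRA* exceeded *EDNRB* in both libraries, but in Rep1 possibly on as few as 5 and 6 reads, so that order is not resolved there. *NOS3* was the only synthase above 0 in both libraries. Of the 7 genes with any signal, 5 were above 0 in both libraries and 2 only in Rep2, beside 69.2% and 30.2% of the 14693 genes with a value above 0 in either library. All 7 were higher in Rep2 as deposited, as were 75.9% of the 14693 genes, although *EDNRB* was not after the scaling by the median of ratios described below.

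**Figure D1:**
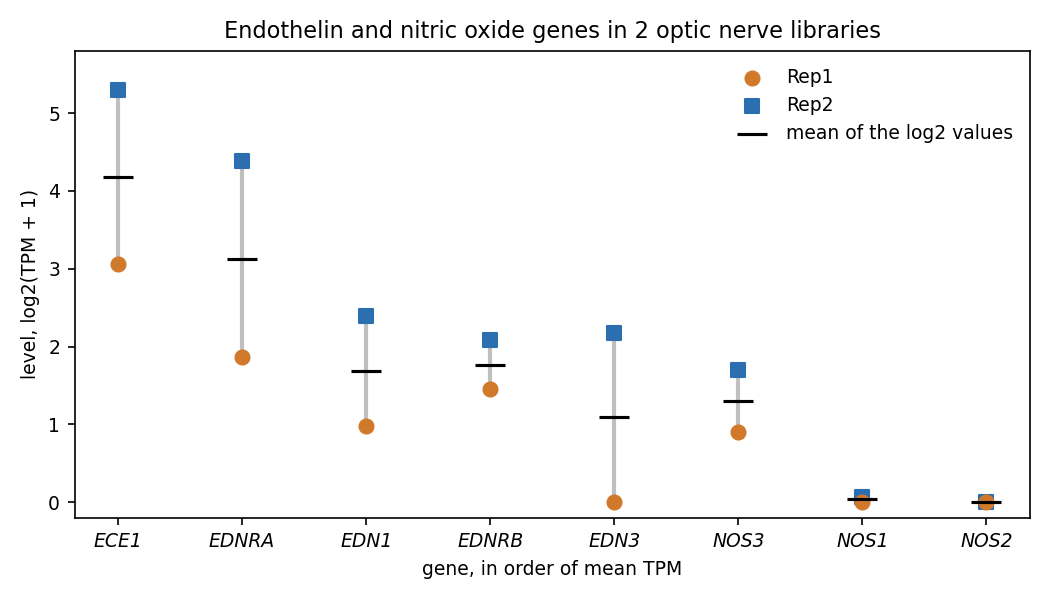
Level of each gene as log2(TPM + 1), with circles for Rep1, squares for Rep2, a grey line joining the libraries and a black dash at the mean of both log2 values. *ECE1* and *EDNRA* stand highest in both libraries, the Rep1 value as deposited lies below the Rep2 value in 7 genes (in 6 under median-of-ratios scaling, which turns *EDNRB*), and *EDN3*, *NOS1* and *NOS2* sit at 0 in Rep1.

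*EDN1*, which encodes the endothelial vasoconstrictor endothelin-1, is located on the minus strand of chromosome 4 in Mmul_10 (157695586 to 157704399). It was measured at 0.972 TPM in Rep1 against 4.27 TPM in Rep2, or 2.62 ± 2.33 TPM (SD, n = 2), at percentile 30.2 of the 14693 genes. These values rested on at least 2 reads in Rep1 and 151 in Rep2, the smallest whole numbers that give their ratio. *EDN3* (chromosome 10, 94463973 to 94489462, plus strand), which encodes the ligand known for guiding neural crest derivatives such as melanocytes and enteric neurons through *EDNRB*, had no signal in Rep1 (listed at 0) but 3.52 TPM in Rep2. Its mean of 1.76 ± 2.49 TPM (SD, n = 2) therefore came from Rep2 alone. A zero was common at that level, as 43.5% of the 1566 genes within 1.5-fold of the *EDN3* value in Rep2 were listed at 0 in Rep1, so *EDN3* was not detectable there rather than shown to be absent. In Rep2, where both ligands were seen, *EDN1* was 1.21 times as high as *EDN3*. The remaining ligand gene, *EDN2*, followed the pattern of *EDN3*, at 0 in Rep1 and 1.66 TPM in Rep2.

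Since the ligand genes are paralogs, the stretch of each transcript that codes for the mature peptide is shown 5′ to 3′, from RefSeq transcripts of Mmul_10, to show how far they can be told apart by their reads. Capitals mark the 4 cysteine codons, whose residues form the disulfide bridges of the peptide.
EDN1: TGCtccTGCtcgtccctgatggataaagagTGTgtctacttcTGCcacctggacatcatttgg
EDN2: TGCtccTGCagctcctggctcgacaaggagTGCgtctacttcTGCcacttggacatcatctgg
EDN3: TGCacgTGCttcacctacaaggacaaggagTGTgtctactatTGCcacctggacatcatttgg

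Each stretch spans 21 codons, or 63 bases. *EDN1* and *EDN2* differed at 12 bases and *EDN1* and *EDN3* at 13, with 6 codons of the latter pair coding for another amino acid and 2 of the former. The longest identical run was 21 bases, between *EDN1* and *EDN3*. Over whole transcripts the ligand genes shared 0 sequences of 31 bases, and none of the 31-base sequences of *EDN1* or *EDN3* occurred in transcripts of any other annotated gene. An exact match of that length therefore did not occur between ligand transcripts.

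*EDNRA* (chromosome 5, 145085971 to 145149982, plus strand), the receptor associated with vasoconstriction, was at 2.63 TPM in Rep1 against 19.9 TPM in Rep2, from at least 5 and 651 reads. Its mean was 11.3 ± 12.2 TPM (SD, n = 2), at percentile 53.0. *EDNRB* (chromosome 17, 59709777 to 59734504, minus strand), which binds all endothelins with similar affinity, was at 1.74 TPM in Rep1 against 3.23 TPM in Rep2, from at least 6 and 191 reads, with a mean of 2.48 ± 1.05 TPM (SD, n = 2) at percentile 29.6. *EDNRA* thus had the higher value of the receptors in both libraries, by 1.51 times in Rep1 and 6.18 times in Rep2. The Rep1 factor may rest on as few as 5 reads of *EDNRA* and 6 of *EDNRB*, so the order in that library is not resolved. As a share of summed receptor TPM, which does not depend on the scaling between libraries, *EDNRB* made up 39.8% in Rep1 and 13.9% in Rep2. The ranges of the receptors overlapped, since *EDNRA* in Rep1 lay below *EDNRB* in Rep2. *EDNRB* overlaps the uncharacterized gene *LOC114673590* on the opposite strand and shares exon sequence with it. Whether the counting used strand is not given in the sources used here, so reads of the overlap could belong to either gene.

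**Figure D2:**
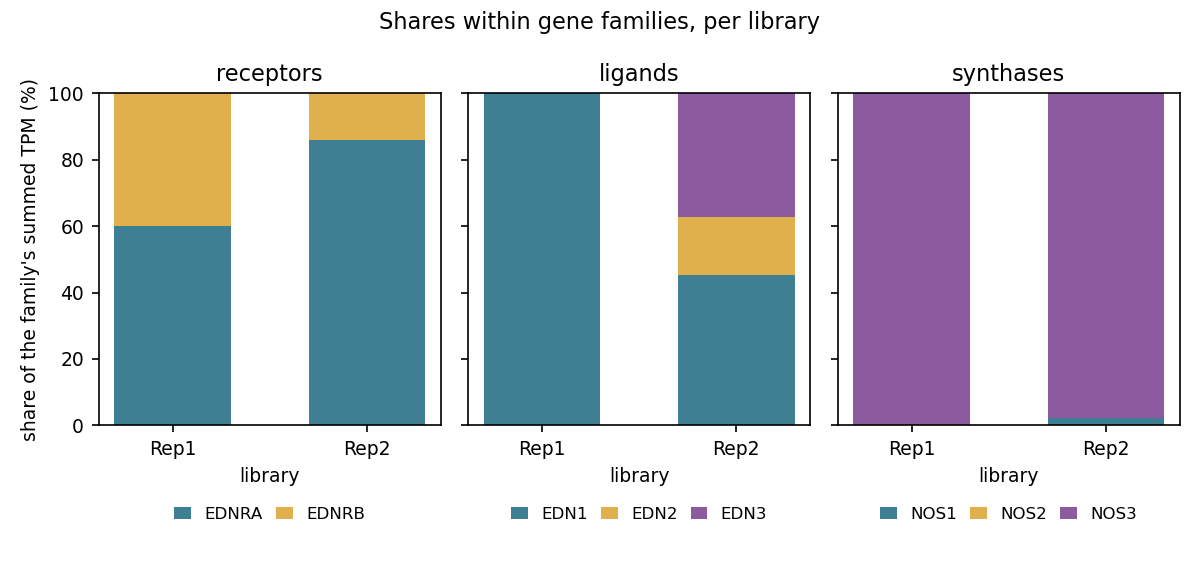
Share of each gene in the summed TPM of its family, in percent, as stacked bars for Rep1 and Rep2, for the receptors, the 3 ligand genes and the nitric oxide synthases. *EDNRA* takes the larger part of the receptors in both libraries (60.2% and 86.1%). *EDN1* is the only ligand gene listed above 0 in Rep1, and *NOS3* takes 100% and 97.8% of the synthases. The Rep1 shares may rest on as few as 5 reads of *EDNRA*, 6 of *EDNRB*, 2 of *EDN1* and 1 of *NOS3*. They are therefore not resolved, and a listed 0 does not show absence.

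*ECE1* (chromosome 1, 203353777 to 203487792, plus strand) encodes the membrane metalloprotease that releases the active peptide. Its level was 7.33 TPM in Rep1 against 38.1 TPM in Rep2, from at least 5 and 447 reads, with a mean of 22.7 ± 21.8 TPM (SD, n = 2) at percentile 66.4. It was 7.54 times as high as *EDN1* in Rep1 and 8.93 times in Rep2, so the enzyme exceeded its main substrate gene in each library. The Rep1 factor may rest on as few as 5 reads of *ECE1* and 2 of *EDN1*, so how alike the factors are is not resolved. Against *EDNRA*, the next gene in the order, *ECE1* was 2.79 times as high in Rep1 and 1.91 times in Rep2. The lower *ECE1* value, however, lay beneath the higher *EDNRA* value, so these neighbours did not differ beyond their spread.

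Among the synthases, *NOS3* (chromosome 3, 176995246 to 177016276, plus strand), the calcium-dependent synthase of endothelium, was at 0.876 TPM in Rep1 against 2.24 TPM in Rep2. These values rested on at least 1 and 44 reads, and the mean was 1.56 ± 0.967 TPM (SD, n = 2), at percentile 24.4. *NOS3* overlaps the uncharacterized gene *LOC100424674* on the opposite strand, with the same uncertainty as for *EDNRB*. *NOS1* (chromosome 11, 116946412 to 117098744, minus strand), the neuronal synthase, was listed at 0 in Rep1 and at 0.0515 TPM in Rep2, and 88.4% of the 233 genes within 1.5-fold of that Rep2 value were listed at 0 in Rep1. *NOS2* (chromosome 16, 23369455 to 23411384, minus strand), the synthase that macrophages and glia switch on in inflammation, was listed at 0 in both libraries, as were 11.9% of all 16684 genes. Of the 31-base sequences of the *NOS2* transcript, 15.7% also occur in the annotated genes *LOC114673005* and *LOC717302*, and how reads with several alignments were treated is not given in the sources used here. The rest were its own, and the synthase genes shared 0 such sequences with each other. In Rep2, *NOS3* was 43.6 times as high as *NOS1*.

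In the order of mean levels, *NOS3* and *NOS1* were the only neighbours whose ranges did not overlap. Over all 28 pairs of the 8 genes, 15 pairs had ranges that did not overlap and 22 stood in the same order in both libraries. Most of the 15 pairs held *NOS1* or *NOS2*, which were at or near 0 in both libraries. *ECE1* lay above *EDN1*, *EDNRB*, *EDN3* and each synthase in this strict sense, and *EDNRA* above *NOS3*. *EDN1* and *EDNRB* changed places, as *EDN1* was 0.558 times as high as *EDNRB* in Rep1 and 1.32 times in Rep2. The Rep1 order may rest on as few as 2 reads of *EDN1* and 6 of *EDNRB*, so this change is not resolved. Some orders shared by both libraries also rest on few reads, such as *EDN1* above *NOS3* in Rep1 (1.11 times, from at least 2 and 1 reads). Genes of the lists described below with values most like those of a member over both libraries were *CX3CR1* for *EDN1* (a distance of 0.05 in log2(TPM + 1)), *FURIN* for *EDNRA* (0.27), *NOSTRIN* for *EDNRB* (0.45), *PLCB1* for *ECE1* (0.51) and *RGS4* for *NOS3* (0.29). Each likeness rests on 2 values.

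The difference between the libraries was uneven among the members. Of the 7 genes with a value above 0 in either library, 4 were at least 2-fold higher in Rep2 on the log2(TPM + 1) scale, and 51.3% of the 14693 genes were. None was at least 2-fold higher in Rep1, where 14.8% of all genes were. The 4 were *EDNRA*, with a log2 difference (Rep1 minus Rep2) of -2.53, *ECE1* with -2.23, *EDN1* with -1.42, and *EDN3*, listed at 0 in Rep1. *NOS3*, at -0.79, and *EDNRB*, at -0.62, differed less. The median over the 5 genes above 0 in both libraries was -1.42, beside -0.98 over the 10168 genes of that kind. Scaling by the median of ratios, which multiplied Rep1 by 2.28 relative to Rep2 (correcting a log2 shift of -1.19), raised these differences, each by less than the size of that shift. After it, 3 of the 7 genes (*EDNRA*, *ECE1* and *EDN3*) were at least 2-fold higher in Rep2, beside 33.8% of all genes, and 0 in Rep1, beside 23.7%. *EDNRB* was then higher in Rep1, by 0.21, *NOS3* was at -0.10, *EDN1* at -0.63, *ECE1* at -1.12 and *EDNRA* at -1.51. The lower level of *EDNRB* in Rep1 thus turned under this scaling, though not with TPM rescaled without the 10 most abundant genes (-0.79), whereas that of *EDNRA* and *ECE1* held at 2-fold or more under median-of-ratios scaling too.

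**Figure D3:**
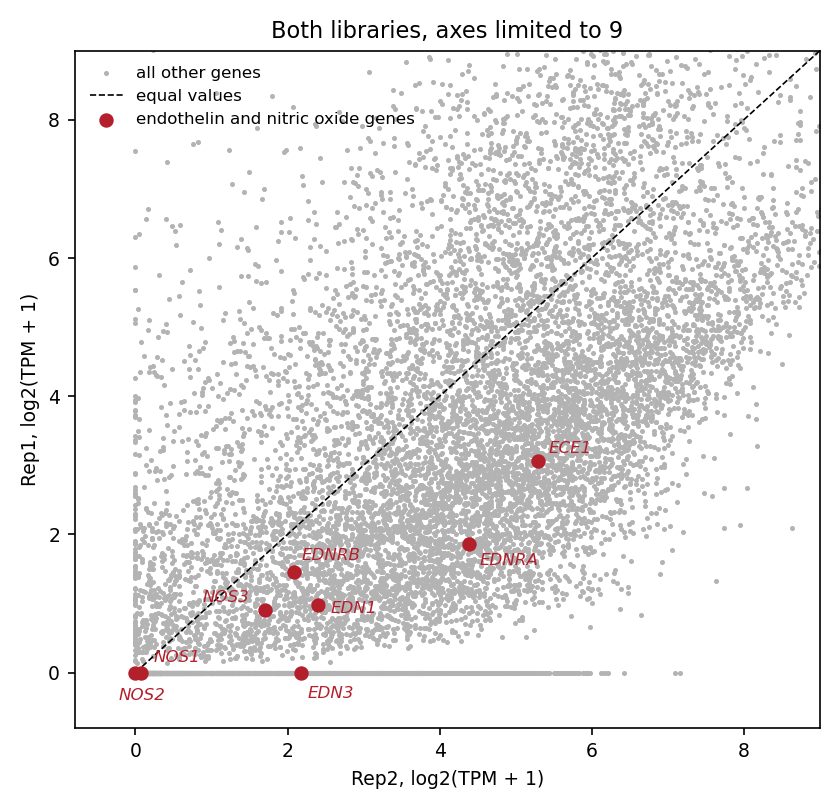
Level of every gene as deposited in Rep2 (x axis) and Rep1 (y axis) as log2(TPM + 1), with both axes limited to 9, all other genes in grey, the endothelin and nitric oxide genes in red and a dashed line at equal values. Unscaled, the red points lie on or under the line (*EDNRB* does not under median-of-ratios scaling), *EDNRA* and *ECE1* farther from it than *EDNRB* and *NOS3*, and *EDN3* on the floor of genes listed at 0 in Rep1.

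The members were also set against the summed markers of vascular cells and astrocytes, a comparison chosen after their values were seen. As a percentage of the endothelial sum, *NOS3* was at 1.43% in Rep1 and 1.61% in Rep2 (a difference of 1.13 times), *EDNRB* differed by 1.23 times, *EDN1* by 1.93, *ECE1* by 2.29 and *EDNRA* by 3.34. Single endothelial markers ran from 4.48 times as high in Rep1 (*TEK*) to 10.6 times as high in Rep2 (*CDH5*), with *VWF* and *ESAM* at 0 in Rep1. Ratios to this sum therefore depend on which markers are summed. Against the pericyte and smooth muscle sum, in which *ACTA2* and *TAGLN* weigh most, *ECE1* was at 3.25% and 3.03% (1.07 times), *EDN1* differed by 1.27 times, *EDNRA* by 1.36, *NOS3* by 2.17 and *EDNRB* by 3.01. *GFAP* weighed most in the astrocyte sum, at 658 of 890 TPM in Rep1 and 4331 of 5313 TPM in Rep2. Single astrocyte markers were from 2.23 (*SLC1A3*) to 122 (*AQP4*) times as high in Rep2 as in Rep1. Against the astrocyte sum, *ECE1* differed by 1.15 times, *EDNRA* by 1.27, *EDN1* by 1.36, *NOS3* by 2.33 and *EDNRB* by 3.22. *EDNRA*, *ECE1* and *EDN1* were thus about as steady against the astrocyte sum, which is mainly *GFAP*, as against the pericyte and smooth muscle sum. In Rep1 the member values may rest on as few as 1 read (*NOS3*), 2 (*EDN1*), 5 (*EDNRA* and *ECE1*) or 6 (*EDNRB*). Small differences among these ratios are therefore not resolved. These are ratios in 2 libraries and do not assign a gene to a cell type.

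Other genes of both pathways were examined as fixed lists, of which 54 of 56 genes were analysed and *GUCY1A1* and *GUCY1B1* were not. Of the 51 with a value above 0 in either library, 12 were at least 2-fold higher in Rep1 and 20 in Rep2, beside 14.8% and 51.3% of all genes. These counts became 20 and 14 under median-of-ratios scaling, beside 23.7% and 33.8% of all genes, and the same shares apply to each list below. Of the genes that make and break the ligands, the leading 3 had mean levels of 9.35 to 12.2 TPM, near that of *EDNRA* and above that of *EDNRB*. *PCSK7* was at 5.34 TPM in Rep1 against 19.1 TPM in Rep2, and *FURIN*, the protease of the first cut, at 3.36 and 19.8 TPM. *MME*, encoding neprilysin, which degrades endothelins, was at 6.64 and 12.05 TPM, and the chymase gene *CMA1* was listed at 0 in both. In this list 3 of 5 genes with signal were at least 2-fold higher in Rep2 (2 after scaling), near the 51.3% of all genes, and 0 in Rep1.

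The leading signalling genes downstream of the receptors were far more abundant than the receptors, and 5 of 11 were at least 2-fold higher in Rep1 against 1 in Rep2, beside 14.8% and 51.3% of all genes (8 and 1 after scaling, beside 23.7% and 33.8%). *RHOA*, the GTPase of smooth muscle contraction, was at 2689 TPM in Rep1 against 1352 TPM in Rep2. Its effector kinases *ROCK1* and *ROCK2* were at 877 and 160 TPM and at 330 and 115 TPM, respectively. *GNAQ*, the G protein subunit that couples endothelin receptors to phospholipase C, was at 105 and 51.1 TPM. The median log2 difference of the list was 0.99, where the receptors themselves were below 0 as deposited. These 4 genes are expressed by most cell types.

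On the nitric oxide side, most genes of the cofactor list were higher in Rep2. *QDPR*, which recycles tetrahydrobiopterin, was at 230 TPM in Rep1 against 1781 TPM in Rep2, *PTS* at 1.42 and 34.4 TPM, and *GCHFR* at 2.99 and 24.0 TPM. *SPR*, the last enzyme of cofactor synthesis, had 25.1 TPM in Rep2 and was listed at 0 in Rep1. Of the 6 genes of the list, 5 were at least 2-fold higher in Rep2 (4 after scaling), beside 51.3% of all genes (33.8% after scaling), and 0 in Rep1, with a median log2 difference of -2.80. *GCH1*, the rate-limiting enzyme, was the exception, at 5.10 and 6.29 TPM, and was named after its value was seen. Cyclic GMP genes split, with *PDE5A*, the phosphodiesterase that ends the nitric oxide signal in smooth muscle, at 8.55 TPM in Rep1 against 99.3 TPM in Rep2, and *PDE2A* and *PRKG1* the other way, at 43.6 and 5.27 TPM and at 33.8 and 6.81 TPM. *VASP*, a substrate of the cyclic GMP-dependent kinase, was nearly level at 33.2 and 28.9 TPM. In that list 3 of 7 genes were at least 2-fold higher in Rep1 and 2 in Rep2 (5 and 2 after scaling).

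Genes of arginine supply included *ASS1*, which rebuilds arginine from citrulline, at 21.9 TPM in Rep1 against 128 TPM in Rep2. *DDAH2*, which clears the synthase inhibitor asymmetric dimethylarginine, was at 68.1 and 187 TPM, its paralog *DDAH1* at 71.0 and 13.2 TPM, and *PRMT1*, which methylates arginine in proteins, at 198 and 126 TPM. *AGXT2* was listed at 0 in both. Of the 10 genes with signal, 2 were at least 2-fold higher in Rep1 and 6 in Rep2, or 3 and 3 after scaling. The leading synthase partners were among the most abundant genes of these lists. *CALM2*, which encodes calmodulin, the calcium sensor of *NOS1* and *NOS3*, was at 4838 and 1138 TPM. The chaperone *HSP90AA1* was at 735 and 1513 TPM and *DYNLL1* at 570 and 509 TPM, whereas *CAV3* was listed at 0 in both. In this list of 12 genes with signal, 2 were at least 2-fold higher in Rep1 and 3 in Rep2 (4 and 2 after scaling).

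**Figure D4:**
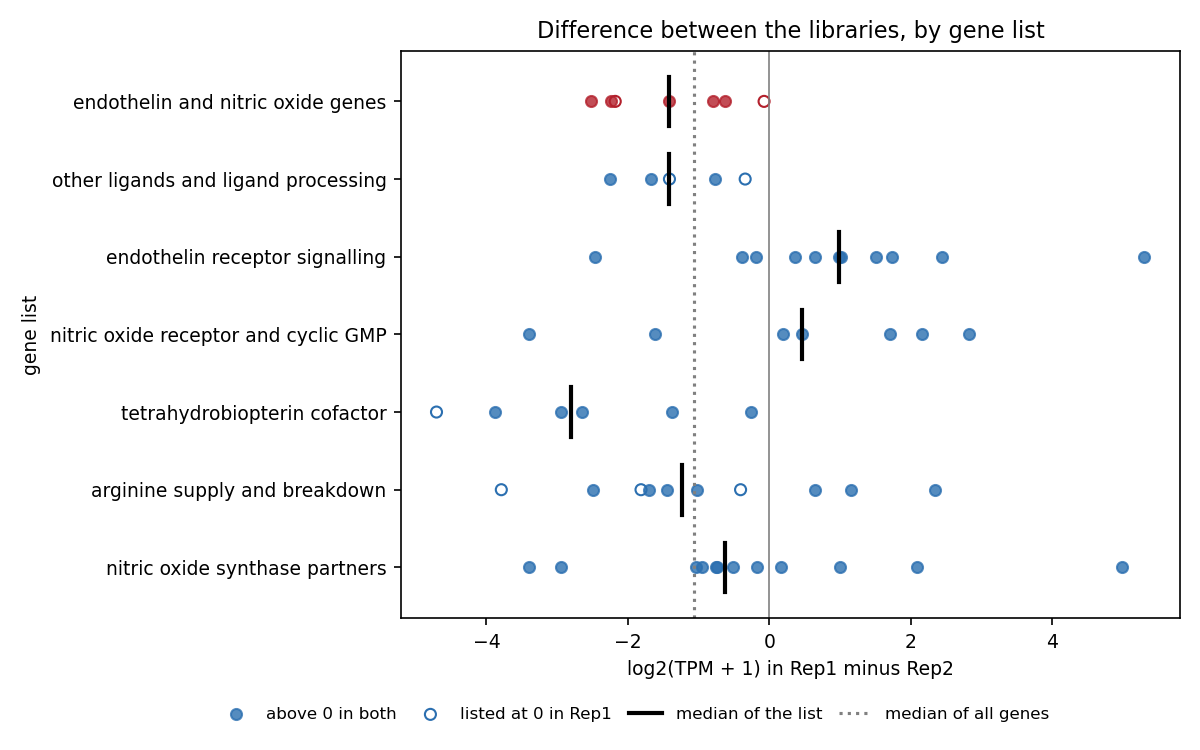
Difference between the libraries, log2(TPM + 1) in Rep1 minus Rep2, for each gene of the endothelin and nitric oxide set (red) and of 6 pathway lists (blue), with open circles for genes listed at 0 in Rep1, a black bar at the median of each list and a dotted line at the median of all genes (-1.07). The receptor signalling genes centre at 0.99 and the cofactor genes at -2.80, while the red points spread from -2.53 to -0.07.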

How the data were processed

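Total RNA of 2 untreated macaque optic nerve samples was sequenced after SMARTer v4 Ultra Low Input library preparation. After trimming (Trim Galore 0.6.6), alignment to Mmul_10 (STAR 2.7.1a) and counting per gene (featureCounts 1.5.3), the authors deposited TPM values for 16684 genes in columns named Rep1 and Rep2. Gene lengths, strand setting and treatment of multiple alignments are not given in the sources used here. The columns could not be matched to sample titles and were used as replicates of a single group. TPM depends on all other genes of a library, so a few abundant transcripts lower the rest.

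Values were analysed in Python 3.11.15 with numpy 2.4.6, pandas 2.3.3 and matplotlib 3.10.9. Differences were taken as log2(TPM + 1), which understates changes of low genes, and 2-fold refers to that scale. Smallest read numbers came from the ratio of a gene's values, which was a ratio of whole numbers (tolerance 1e-12, product under 100000000) in 99.9% of the 10168 genes above 0 in both libraries. They are lower bounds, total depth is unknown, and no interval per gene can be given. Because the cDNA was amplified, reads are not independent molecules. The procedure was checked on simulated data. Neighbouring levels were said to differ when both values of the upper gene exceeded both of the lower. From each pathway list, the 4 genes with the highest mean and those at 0 in both libraries were named, except that a gene of the partner list is not reported here. Likeness between genes was the Euclidean distance of log2(TPM + 1). Transcripts, coordinates and 31-base sequences came from the RefSeq annotation of Mmul_10. The paper names RefGene annotation for its mapping, and whether both hold the same genes was not checked. Members and lists were chosen with earlier results of these data known.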

Additional observations from a re-analysis of the deposited data

How the results depend on the processing

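No paired analysis was possible because there was a single group of samples. Mean levels, shares, the median difference and the count of members at least 2-fold higher in Rep2 stayed within the spread of the libraries, or within 1.5 times for the count, under every alternative run for each of them. For mean levels these were median of ratios, TPM rescaled without the 10 most abundant genes or without microRNA genes, and the geometric mean. The median difference and the count were run with median of ratios and without those 10 genes. They were also run with a pseudocount of 0.1 and a minimum mean of 1 TPM. Shares were run with the summed TPM of both libraries, not under these scalings. Mean levels and shares were also run with single libraries. With 2 libraries the SD is so wide that few changes could exceed it, and a single library always stays within it. For mean levels and shares this therefore says nothing about stability. The spread set against the median difference was taken from the same differences between the libraries, so staying within it says little. That median went from -1.42 as deposited to -0.63 under the median of ratios. Single libraries gave 7.33 to 38.1 TPM for *ECE1*, 2.63 to 19.9 TPM for *EDNRA* and 13.9% to 39.8% for the *EDNRB* share. Among single genes, the difference of *EDNRB* changed sign to 0.21 under the median of ratios, and that of *NOS3* moved to -0.10. Percentiles of low genes followed the set they were ranked in, such as 12.8 for *EDN1* when genes averaging under 1 TPM were left out. The depth of Rep1 limits all genes under a few TPM, where a listed 0 does not show absence.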
